A study of Mus musculus with 12 samples.

Results

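The 39 protein-coding members of the Hoxa, Hoxb, Hoxc and Hoxd clusters were followed in RNA-seq gene counts from mouse embryonic fibroblasts. They were found among the 48709 gene identifiers of the tables by symbol, as Hox, a cluster letter and a number: 11 in Hoxa, 10 in Hoxb, 9 in Hoxc and 9 in Hoxd. The 12 libraries form 4 groups of 3. Cells of strain C57BL/6 carry the genotype label WT or TAZKo, and each line was kept in normoxia or placed in hypoxia for 24 h. Per the series description, the TAZKo cells lack tafazzin, the mitochondrial enzyme that remodels cardiolipin, and the WT cells are isogenic to them. All cells grew in DMEM with fetal bovine serum. Whether each line is 1 clone, and whether the 3 libraries of a group come from separate cultures, is not given in the sources used here, so the p-values measure the spread between these libraries, which may be technical.

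Hox proteins are homeodomain transcription factors that record position along the body axis and along the limbs. Within a cluster the genes lie in the order of their paralog group number, with low numbers at the 3′ end, used toward the head, and high numbers at the 5′ end, used toward the tail and the tips of the limbs. Fibroblasts keep the Hox pattern of the site they came from when they are grown in culture, so the set of transcribed members is read as a positional code. The question here was whether the code of the libraries labelled TAZKo is that of the libraries labelled WT, cluster by cluster.

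Library totals ran from 21039451 to 31204510 counts. The transcript of Taz itself, which encodes tafazzin, did not follow the knockout label: in normoxia it stood at 32.7 to 38 CPM (counts scaled to library size) in WT and 39.8 to 45.8 in TAZKo, and in hypoxia at 23.5 to 26.4 and 32.8 to 35.1. A gene-level count does not check a lesion that leaves the transcript in place, so every direction below rests on the labels of the libraries. Of 12 fibroblast markers 10 or 11 were detected in every group, but Thy1 and Lum, which mark many fibroblasts, were near 0. Col1a2 was detected but low, at 1.51 to 5.93 CPM. The summed level of the 12 markers was 10427 to 13362 CPM, led by Fn1. Members differed between the lines in both directions on the log2 scale. Col1a1 differed by -1.30 in normoxia and -1.39 in hypoxia, and Col1a2 by -1.33 and -0.63. Pdgfrb differed by 1.07 and 0.93, and S100a4 by 1.24 in both. Of the blood cell markers Ptprc and Adgre1 were at or near 0, while Cd68 was at 2.90 to 7.93 CPM and Csf1r, at 0.804 to 5.90, was lower in TAZKo by -0.88 and -1.21. Of the neural markers Sox2 and Sox10 were near 0, while Nes was at 176 to 340 CPM and Tubb3 at 21.9 to 60.4. Myod1, Myf5, Pou5f1 and Zfp42 were at 0 in all libraries, and Nanog was at 0.875 to 2.43 CPM. Summed epithelial markers, mainly Krt14 and Krt18, differed between the lines at 345 to 431 CPM in WT against 196 to 211 in TAZKo in normoxia, and 315 to 345 against 255 to 258 in hypoxia. Krt14 was lower in TAZKo by -1.24 in normoxia and -0.59 in hypoxia. Krt18 was lower by -0.40 in normoxia, and in hypoxia the lines overlapped at -0.03. Epcam, Cdh1 and Krt5 were under 1 CPM in every library. Summed endothelial markers, mainly Tek, were at 18 to 21 CPM in WT and 5.64 to 7.48 in TAZKo in normoxia, and 14.5 to 20.5 and 3.84 to 5.05 in hypoxia. Tek was lower in TAZKo by -1.69 and -2.06, and Kdr by -1.65 and -1.44. Pecam1, under 1 CPM, went the other way in normoxia at 1.38 (adjusted p = 0.0389, edgeR) and stood at -0.17 in hypoxia. Cdh5 and Emcn were at or near 0. The part of these genes in the differences between the lines was not tested, and fewer cells of a kind cannot be told apart from less RNA per cell.

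The results turn on a few members, and the 250 bases before the annotated start of 4 of them are shown so that their promoters can be read beside their values. Hoxd8 was nearly absent from the libraries labelled TAZKo, and Hoxb8 is its paralog that both lines transcribed. Among the members outside Hoxd that were high enough to be tested, Hoxa9 had the lowest value relative to WT, and Hoxa13 fell most in hypoxia. Sequences are from RefSeq on GRCm38.p6, written 5′ to 3′ on the gene's own strand, and capitals mark each CG dinucleotide, the letters at which mammalian DNA is methylated. The Hoxa9 window precedes a RefSeq start. It lies inside the span of Hoxa9 in GENCODE M21 (52223100 to 52231089), the annotation used here for exon lengths.

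Hoxd8, chr2:74704365-74704614, plus strand: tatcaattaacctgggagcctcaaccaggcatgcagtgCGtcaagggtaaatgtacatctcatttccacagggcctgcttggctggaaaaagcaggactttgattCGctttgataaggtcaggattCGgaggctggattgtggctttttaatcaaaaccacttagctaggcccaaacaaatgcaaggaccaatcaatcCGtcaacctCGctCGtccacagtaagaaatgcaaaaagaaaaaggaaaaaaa
Hoxb8, chr11:96281655-96281904, plus strand: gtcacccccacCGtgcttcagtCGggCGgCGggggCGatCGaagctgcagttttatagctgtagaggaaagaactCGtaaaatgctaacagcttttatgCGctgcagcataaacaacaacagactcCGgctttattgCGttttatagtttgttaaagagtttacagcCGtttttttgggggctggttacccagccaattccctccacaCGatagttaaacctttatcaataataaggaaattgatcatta
Hoxa9, chr6:52227371-52227620, minus strand: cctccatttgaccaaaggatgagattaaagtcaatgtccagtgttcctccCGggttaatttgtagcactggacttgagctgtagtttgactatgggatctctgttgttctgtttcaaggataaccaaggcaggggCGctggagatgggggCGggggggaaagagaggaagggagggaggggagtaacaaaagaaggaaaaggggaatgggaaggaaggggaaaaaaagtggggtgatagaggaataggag
Hoxa13, chr6:52260881-52261130, minus strand: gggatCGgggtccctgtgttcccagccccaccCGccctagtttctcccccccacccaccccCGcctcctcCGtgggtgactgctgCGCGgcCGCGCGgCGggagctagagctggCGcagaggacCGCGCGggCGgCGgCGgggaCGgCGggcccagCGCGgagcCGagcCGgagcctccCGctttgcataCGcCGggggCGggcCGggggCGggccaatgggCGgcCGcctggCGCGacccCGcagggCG

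The Hoxd8 window holds 6 CG, which is the median of the 32851 promoter windows of this table, and 50.4% of them hold at least as many. The Hoxb8 window holds 12 and the Hoxa9 window 3, numbers that 33.5% and 71% of windows reach. The Hoxa13 window holds 35, a number reached by 2.97%. The table matched 22 of the 39 symbols with 24 windows, and CG numbers ran from 2 to 31 in the 10 windows of Hoxd and from 3 to 35 in the 14 of the other clusters. The letters ACGTG or GCGTG, the core to which hypoxia-inducible factors bind, were searched on both strands. None of the 4 windows holds them, while 38.6% of all windows and 10 of the 24 Hox windows do. These are letters in a short window and say nothing of whether a factor binds there.

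A member was counted as detected in a group when each of its 3 libraries had more than 3 counts, which is 0.0927 to 0.150 CPM at these depths. By that rule 31 members were detected in WT and 26 in TAZKo in normoxia, and 29 and 26 in hypoxia. Hoxa11, Hoxb1 and Hoxd1 had 0 counts in all 12 libraries. Summed over the 39 members, Hox transcripts made up 341 ± 5.86 CPM in WT and 347 ± 1.0 in TAZKo in normoxia, and 369 ± 14.6 and 401 ± 6.54 in hypoxia (SD, n = 3).

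**Figure D1:**
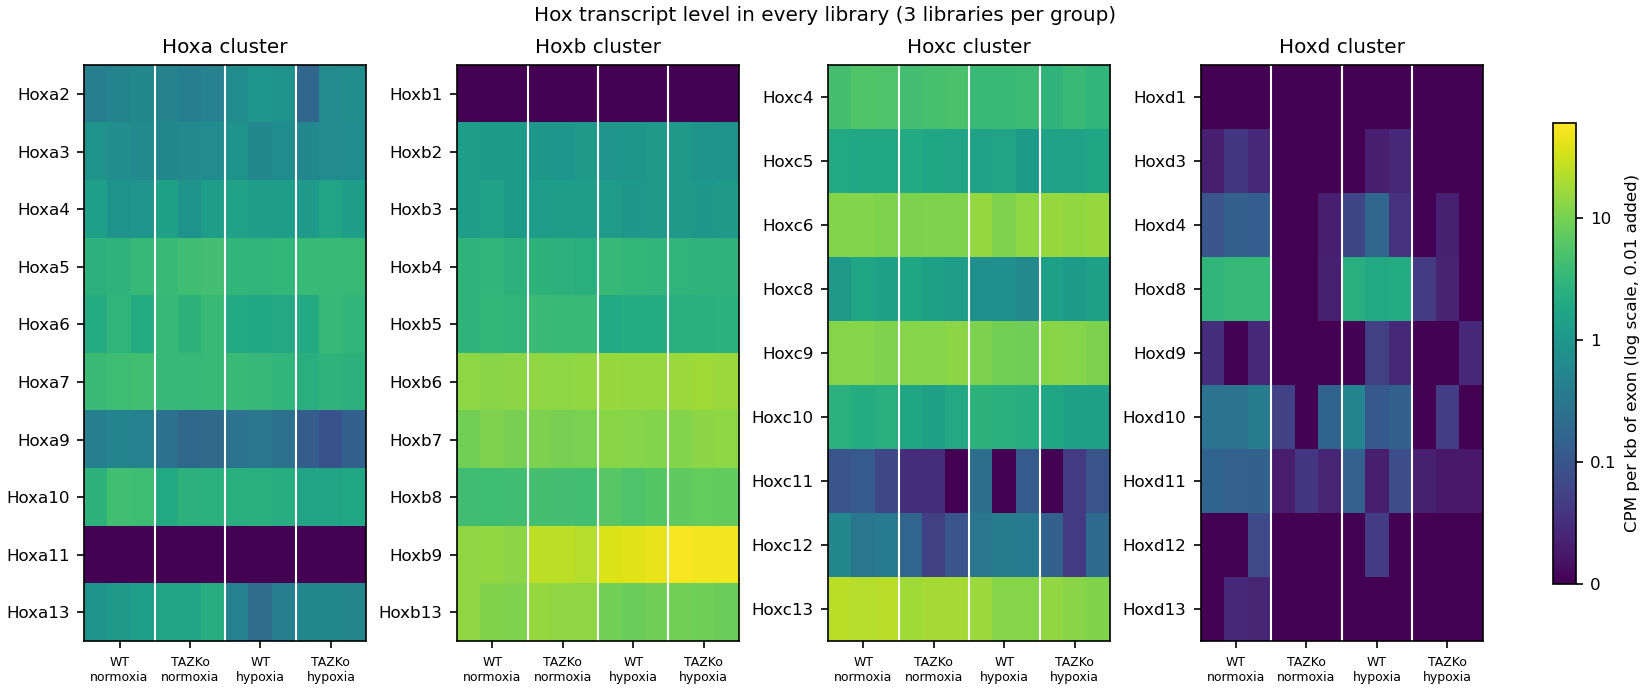
Level of the Hox members in every library, in CPM per kb of exon on a log scale with 0.01 added, with members in rows from the 3′ to the 5′ end of each cluster and libraries in columns, 3 to a group. Most rows of Hoxa, Hoxb and Hoxc change little in colour across the 4 groups, with Hoxa9, Hoxa13, Hoxb9, Hoxc11 and Hoxc12 among those that change more, while Hoxd8 is bright in the 6 WT libraries and dark in the 6 libraries labelled TAZKo.

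The Hoxd cluster (chromosome 2, 74668310 to 74765142, GRCm38) was transcribed at a low level in the WT libraries and was nearly silent in the libraries labelled TAZKo. In WT normoxia 4 of its 9 members were detected, Hoxd4, Hoxd8, Hoxd10 and Hoxd11, and in WT hypoxia Hoxd8 and Hoxd10. No member was detected in either TAZKo group. The summed Hoxd level was 10.5 ± 0.816 CPM in WT against 0.219 ± 0.158 in TAZKo under normoxia, and 7.05 ± 1.14 against 0.129 ± 0.0535 under hypoxia (SD, n = 3). Hoxd gave 2.81 to 3.34% of all Hox counts in WT normoxia and 0.0364 to 0.115% in TAZKo normoxia. In hypoxia the shares were 1.76 to 2.18% and 0.0177 to 0.0431%. Pooled over 3 libraries a group, 770 Hoxd counts stood against 19 in normoxia, a ratio of 44.0 (95% exact interval 28.0 to 73.4), and 486 against 10 in hypoxia, a ratio of 54.5 (29.4 to 114). These ratios take the depth of the libraries into account, and their intervals cover counting error only.

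Hoxd8, a trunk-level member from the middle of the cluster (74704615 to 74707933), gave most of this signal. Its counts were 183, 206 and 256 in WT normoxia and 0, 0 and 1 in TAZKo normoxia. In hypoxia they were 134, 118 and 160 in WT and 2, 1 and 0 in TAZKo. Every WT library was therefore above 100 counts and every library labelled TAZKo at or below the floor of 3. Adjusted p was 1.217e-09 in normoxia and 5.147e-09 in hypoxia (edgeR quasi-likelihood test, Benjamini-Hochberg over 14408 genes). The pooled counts of 645 against 1 give a ratio of 700 (95% exact interval 125 to 27675) in normoxia, and 412 against 3 give 154 (52.3 to 749) in hypoxia. No exon base of Hoxd8 is shared with another annotated gene.

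Such an on-or-off difference was rare in these libraries. More than 3 counts in all 6 WT libraries and at most 3 in all 6 libraries labelled TAZKo were found for 76 of 28702 genes with any count, or 0.265%, and Hoxd8 was the single Hox member among them. The reverse held for 9 genes, none of them a Hox member. Among the 76, 8 had a mean of at least 100 counts over the WT libraries, and Hoxd8 was one of those. The 28702 genes include many too low in WT to meet the rule, which lowers the share of 0.265%.

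The other Hoxd members were sparse, but their pooled counts lay on the same side. Hoxd11, which patterns the forearm and the trunk's posterior end, had 45 counts in WT normoxia against 6 in TAZKo normoxia, a ratio of 8.13 (3.46 to 23.3). In hypoxia its counts were 21 against 3, a ratio of 7.85 (2.34 to 41.1). Its adjusted p was 0.001912 in normoxia and 0.01522 in hypoxia. Hoxd10, a posterior neighbour, had 41 counts against 11, a ratio of 4.04 (2.04 to 8.72), with adjusted p = 0.05119, or 0.03648 when the fit was blocked on replicate. In hypoxia Hoxd10 had 29 counts against 2, a ratio of 16.3 (4.11 to 141), with adjusted p = 0.0159. In hypoxia 1 WT library of Hoxd11 lay within the TAZKo range. Among the hypoxia libraries, WT replicate 1 held the highest CPM of both genes, and without it the adjusted p was 0.0654 for Hoxd11 and 0.06951 for Hoxd10. The hypoxia call of Hoxd11 was also lost without TAZKo hypoxia replicate 2 (adjusted p = 0.05408) or 3 (0.05265), and that of Hoxd10 without TAZKo hypoxia replicate 3 (0.06316).

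Hoxd4 was too low for the test, with 25 counts against 1 in normoxia, a ratio of 27.1 (4.44 to 1113), and 16 against 1 in hypoxia, a ratio of 17.9 (2.79 to 752). Over both conditions Hoxd3 had 9 counts against 0. Putting 3 counts in place of the 0 gives a ratio of 3.31, which is not a lower limit. Hoxd9 had 5 against 1, Hoxd12 6 against 0 and Hoxd13 2 against 0. Leaving Hoxd8 out, the cluster still gave 125 counts against 18 in normoxia, a ratio of 7.53 (4.58 to 13.1), and 74 against 7 in hypoxia, a ratio of 11.8 (5.47 to 30.5). Exons of Hoxd3 and Hoxd4 share 62.9% and 52.3% of their bases with other genes, among them an antisense transcript. The kit does not mark strand, so reads of these partners cannot be told apart.

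**Figure D2:**
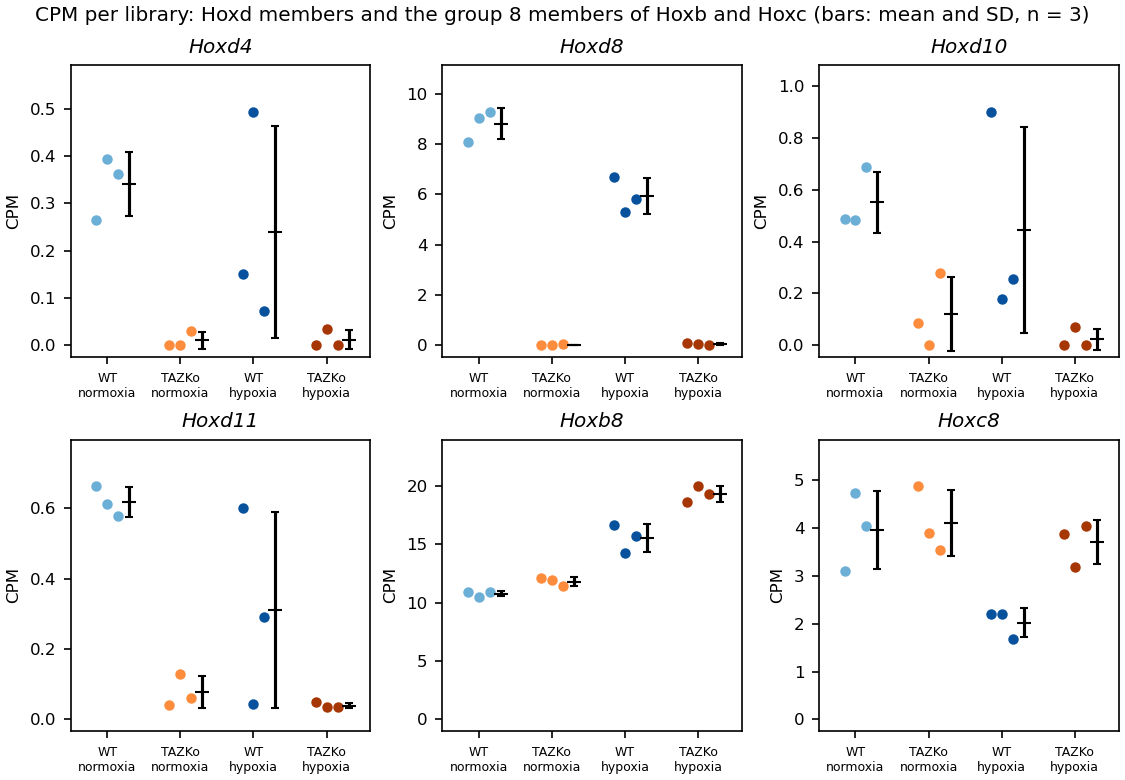
CPM in each of the 12 libraries (points, 3 per group) with the mean and SD, for the Hoxd members detected in WT normoxia and for Hoxb8 and Hoxc8, the paralogs of Hoxd8. Hoxd8 lies between 5.29 and 9.27 CPM in WT and at or below 0.0972 in the libraries labelled TAZKo, while Hoxb8 is at 10.5 CPM or more in every library.

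The antisense transcript Hoxd3os1, which runs against Hoxd8 and Hoxd3 through the middle of the cluster (74703248 to 74716130), was also lower in TAZKo. Some of its exon bases are shared with Hoxd3 and Hoxd4 and the kit does not mark strand, so reads there cannot be assigned to it alone. It had 33, 30 and 52 counts in WT normoxia and 0, 0 and 1 in TAZKo normoxia. Under hypoxia its values were 22, 18 and 23 in WT and 0 in each library labelled TAZKo. Its adjusted p was 2.459e-06 in normoxia and 1.391e-05 in hypoxia. Of 43 annotated non-coding genes within the 4 clusters 12 could be tested. In normoxia Hoxd3os1 was the 1 that passed, or 8.33%, beside 30.4% of all genes. In hypoxia 3 passed, or 25%, beside 32.8%, Hoxd3os1 among them.

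The genes beside the cluster were measured as well. Of 8 tested genes within 1 Mb of Hoxd, none was lower and 1 was higher in TAZKo normoxia, and 1 was lower and none higher in TAZKo hypoxia, beside 30.4% and 32.8% of all genes in either direction. The largest difference in size was 0.56 on the log2 scale in normoxia and 0.55 in hypoxia. The near neighbours Lnpk, an endoplasmic reticulum protein, and Mtx2, a mitochondrial import protein, bracket the cluster. Lnpk differed by -0.02 in normoxia, and Mtx2 was lower by -0.37 in hypoxia (adjusted p = 0.001613).

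Because each paralog group is served by several clusters, Hoxd8 was also read within group 8. Per kb of exon, Hoxd8 supplied 36.8 ± 0.873% of group 8 transcript in WT normoxia and 24.6 ± 0.903% in WT hypoxia (SD, n = 3). In the libraries labelled TAZKo it supplied 0.0670 ± 0.116% and 0.187 ± 0.212%. Hoxb8 supplied 47.1 ± 3.12% in WT normoxia and 75.6 ± 2.51% in TAZKo normoxia. The whole group stood at 8.70 ± 0.442 CPM per kb in WT normoxia and 5.94 ± 0.360 in TAZKo normoxia. In hypoxia it stood at 8.79 ± 0.726 in WT and 8.66 ± 0.144 in TAZKo, values that lie within each other's spread.

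In the other clusters nearly the same members were detected in both lines. In every group 10 of 11 Hoxa members were detected, all but Hoxa11, and 9 of 10 Hoxb members, all but Hoxb1. In Hoxc 8 of 9 were detected in the WT groups and 7 in the TAZKo groups, since Hoxc12 passed the rule in WT alone, and Hoxc11 passed in none. Hoxc12 had 55 counts against 18 over both conditions, a ratio of 3.37 (1.95 to 6.09). The most 5′ detected member of Hoxa, Hoxb and Hoxc was that of group 13 in every group of libraries. Across the 26 members of these clusters detected in both lines, the log2 CPM per kb of the lines correlated with Pearson's r = 0.974 and Spearman's rho = 0.971 in normoxia, and 0.976 and 0.969 in hypoxia. These are correlations across genes, which share libraries and depth and are not independent replicates. Members not detected in both lines, such as Hoxc12, are left out of them, which favours agreement. No correlation over all genes is set beside them. In each condition 25 of the 26 differed by less than 2-fold, Hoxa9 being the exception.

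Between the lines in normoxia, 10 of the 29 members that could be tested passed the threshold of adjusted p under 0.05, or 34.5%, beside 30.4% of all genes. In hypoxia 12 of 29 passed, or 41.4%, beside 32.8% of all genes. Both shares lie near the background. The other 10 members, Hoxa11, Hoxb1, Hoxc11, Hoxc12, Hoxd1, Hoxd3, Hoxd4, Hoxd9, Hoxd12 and Hoxd13, were too low for the test. The median size of the difference over the Hoxa, Hoxb and Hoxc members was 0.22 on the log2 scale in normoxia and 0.23 in hypoxia, beside 0.20 and 0.21 over all genes. Members that passed in both conditions in 1 direction were Hoxb9, higher in TAZKo, and Hoxa9, Hoxa10, Hoxc10, Hoxd8 and Hoxd11, lower. Both comparisons use the same lines, so the second is not an independent sample of them.

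**Figure D3:**
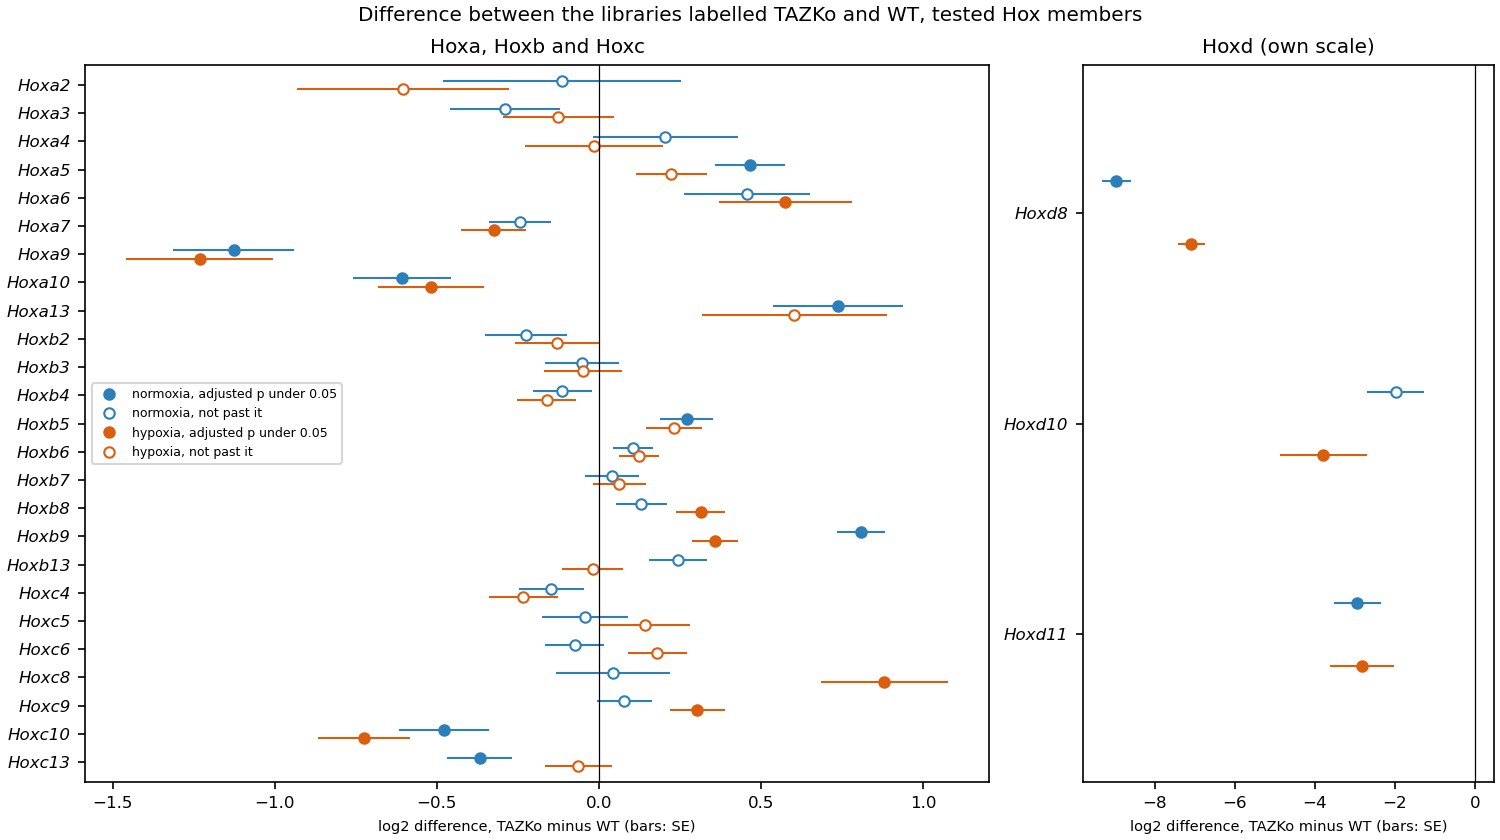
Fitted log2 difference between libraries labelled TAZKo and WT for tested members, in normoxia and hypoxia, with the SE as bars and filled points for adjusted p under 0.05; Hoxd has its own scale, and its fitted values depend on the prior count because TAZKo counts are near 0. Members of Hoxa, Hoxb and Hoxc lie between -1.23 and 0.88, and those of Hoxd between -8.97 and -1.99.

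In the Hoxa cluster (chromosome 6) the summed level was 47.0 ± 4.44 CPM in WT and 44.0 ± 2.99 in TAZKo under normoxia, and 39.2 ± 1.76 and 34.4 ± 2.56 under hypoxia (SD, n = 3). Hoxa9, which specifies posterior trunk levels, had 2.30, 2.76 and 2.5 CPM in WT normoxia and 1.39, 0.997 and 1.08 in TAZKo normoxia. In hypoxia it had 1.5, 1.62 and 1.35 CPM in WT and 0.680, 0.450 and 0.767 in TAZKo. No TAZKo library reached a WT library of the same condition. It was lower by -1.13 ± 0.19 in normoxia (SE, adjusted p = 4.739e-04) and -1.23 ± 0.23 in hypoxia (adjusted p = 9.679e-04). By the rule of adjusted p under 0.05 and at least 2-fold with no overlap, 5.88% of all genes qualified in normoxia and 5.77% in hypoxia. Of the 29 tested members Hoxa9 and Hoxd8 qualified in both conditions, Hoxd11 in normoxia alone and Hoxd10 in hypoxia alone. Hoxd10 and Hoxd11 had a mean under 1 CPM in every group.

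The neighbour Hoxa10 was also lower in TAZKo, by -0.61 ± 0.15 in normoxia (adjusted p = 0.007693) and -0.52 ± 0.16 in hypoxia (adjusted p = 0.02621). The hypoxia call was lost without WT replicate 1 or 2 or TAZKo replicate 1 or 2 (adjusted p up to 0.0833). At the anterior side Hoxa5, which acts at neck and upper chest level, had 5.04, 5.44 and 6.30 CPM in WT normoxia and 6.86, 7.89 and 8.47 in TAZKo normoxia. In the hypoxia libraries it had 5.70, 5.56 and 5.97 CPM in WT and 6.56, 6.92 and 6.66 in TAZKo. The groups did not overlap in either condition, and the difference of 0.47 ± 0.11 passed in normoxia (adjusted p = 0.005137), while that of 0.22 ± 0.11 in hypoxia did not (adjusted p = 0.1431). Hoxa7 had 11, 11.4 and 12.5 CPM in WT normoxia and 9.59, 9.71 and 10.1 in TAZKo normoxia. In hypoxia it had 10.3, 9.42 and 8.66 CPM in WT and 6.66, 8.13 and 7.70 in TAZKo. Its difference was -0.24 ± 0.10 in normoxia (adjusted p = 0.06988) and -0.32 ± 0.10 in hypoxia (adjusted p = 0.02345). That call was lost without WT hypoxia replicate 1 or 2 or TAZKo hypoxia replicate 1 (adjusted p up to 0.08604). Hoxa6, between them in the cluster, stood at 0.46 ± 0.19 in normoxia (adjusted p = 0.094) and was higher in TAZKo hypoxia by 0.58 ± 0.21 (adjusted p = 0.0462), a call lost in 9 of 12 fits that left out 1 library (adjusted p up to 0.1924). Hoxa2, Hoxa3 and Hoxa4 passed in neither condition, with differences from -0.60 to 0.21.

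The order within the cluster followed from these shifts. Per kb of exon Hoxa7 led Hoxa in WT, at 4.04 ± 0.266 in normoxia and 3.29 ± 0.286 in hypoxia. Hoxa5 led in TAZKo, at 4.12 ± 0.435 and 3.58 ± 0.0985. Exons of Hoxa7 share 20.4% of their bases with Hoxaas3, and the kit does not mark strand. Reads there cannot be assigned to Hoxa7 alone. The WT runner-up in normoxia was Hoxa10 at 3.70 ± 0.801, and the gap was smaller than the SD of Hoxa10. In WT hypoxia the runner-up was Hoxa5 at 3.06 ± 0.109, and the gap was smaller than the SD of Hoxa7 alone. Hoxa13, the most 5′ member, which shapes digits and the genital tract, was higher in TAZKo normoxia at 4.0, 3.99 and 5.5 CPM against 2.08, 2.68 and 3.33, a difference of 0.74 ± 0.20 (adjusted p = 0.01269). Without TAZKo normoxia replicate 3 that call was lost (adjusted p = 0.1011). In hypoxia the difference was 0.60 ± 0.29 (adjusted p = 0.1267).

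The Hoxb cluster (chromosome 11, 96194316 to 96368256) was higher in TAZKo. Its sum was 140.6 ± 5.32 CPM in WT and 176.3 ± 4.50 in TAZKo under normoxia, and 212.4 ± 7.36 and 248.9 ± 3.08 under hypoxia (SD, n = 3). Most of the rise came from Hoxb9, a lower-chest member and the highest of the cluster per kb in every group. Its lead in WT normoxia was small, at 13.9 ± 0.769 CPM per kb against 13.2 ± 0.521 for Hoxb6. Hoxb9 had 36.2, 37.6 and 33.7 CPM in WT normoxia and 65.2, 65 and 58.4 in TAZKo normoxia. After hypoxia it had 97.4, 104 and 114 CPM in WT and 140, 133 and 133 in TAZKo. The 4 groups did not overlap, and TAZKo was higher by 0.81 ± 0.07 in normoxia (adjusted p = 2.459e-06) and 0.36 ± 0.07 in hypoxia (adjusted p = 0.001663).

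Hoxb5 passed in normoxia at 0.27 ± 0.08 (adjusted p = 0.02114) and Hoxb8 in hypoxia at 0.31 ± 0.07 (adjusted p = 0.005397). The call of Hoxb5 was lost in 7 of 12 fits that left out 1 library (adjusted p up to 0.125). Hoxb13, the most 5′ member and a marker of tail and hindgut levels, had 31.0, 25.2 and 24.7 CPM in WT normoxia and 33.1, 31.2 and 31.5 in TAZKo normoxia. Its difference was 0.25 ± 0.09 (adjusted p = 0.05341), and it passed when the fit was blocked on replicate (adjusted p = 0.01169). In hypoxia the difference was -0.02 ± 0.09. Hoxb2, Hoxb3, Hoxb4, Hoxb6 and Hoxb7 passed in neither condition, with differences from -0.23 to 0.12.

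In the Hoxc cluster (chromosome 15, 102921103 to 103036852) the sum was 142.7 ± 3.12 CPM in WT and 126.8 ± 2.24 in TAZKo under normoxia, and 110.6 ± 12.2 and 117.4 ± 5.49 under hypoxia (SD, n = 3). Hoxc13, the most 5′ member, known from hair and nail, was the highest per kb in both normoxia groups, while in WT hypoxia it stood at 13.6 CPM per kb, within 1 SD of Hoxc6 at 13.4 ± 2.02. It had 59.3, 56.2 and 57.1 CPM in WT normoxia and 42.5, 45.9 and 45.4 in TAZKo normoxia. In hypoxia it had 39.6, 30.2 and 30.2 CPM in WT and 35.5, 31.7 and 28.5 in TAZKo. The normoxia groups stood apart, by -0.37 ± 0.10 (adjusted p = 0.0136), and the hypoxia groups overlapped, at -0.06 ± 0.10 (adjusted p = 0.6852).

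Hoxc6, a chest and forelimb member, led the cluster in TAZKo hypoxia at 15.2 ± 0.415 CPM per kb, above Hoxc13 at 13.0 ± 1.43. It had 29.1, 28.4 and 26.5 CPM in WT normoxia and 26.4, 26.4 and 27.0 in TAZKo normoxia. Hypoxia libraries gave 36.8, 27.2 and 33.1 CPM in WT and 37.1, 35.5 and 37.4 in TAZKo. The lines did not differ past the threshold in either condition, at -0.07 ± 0.09 and 0.18 ± 0.09. Hoxc10, a lumbar and hindlimb member, was lower in TAZKo by -0.48 ± 0.14 in normoxia (adjusted p = 0.01874) and -0.72 ± 0.14 in hypoxia (adjusted p = 0.001542). Hoxc8 and Hoxc9 were higher in TAZKo hypoxia, by 0.88 ± 0.20 (adjusted p = 0.003678) and 0.30 ± 0.09 (adjusted p = 0.01471), while in normoxia they stood at 0.04 ± 0.18 and 0.08 ± 0.08. The call of Hoxc9 was lost without WT hypoxia replicate 2 or 3 or TAZKo hypoxia replicate 1 or 2 (adjusted p up to 0.07333), and that of Hoxc10 in normoxia without WT normoxia replicate 1 or TAZKo normoxia replicate 2 (adjusted p up to 0.05727). Hoxc4 and Hoxc5 passed in neither condition.

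The response to 24 h of hypoxia was compared within each line. In WT 16 of 29 members passed, or 55.2%, beside 51.0% of all genes. In TAZKo 13 of 29 passed, or 44.8%, beside 43.8%. Both shares lie near the background. In both lines Hoxb6, Hoxb7, Hoxb8 and Hoxb9 rose, and Hoxa7, Hoxa9, Hoxa10, Hoxa13, Hoxb5, Hoxb13, Hoxc4 and Hoxc13 fell. No member passed in opposite directions. Hoxc5, Hoxc8, Hoxc9 and Hoxd8 fell in WT, and Hoxc6 rose in TAZKo.

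Within Hoxb the rise grew from Hoxb6 to Hoxb9. In WT it was 0.21 ± 0.06 for Hoxb6, 0.29 ± 0.08 for Hoxb7, 0.53 ± 0.08 for Hoxb8 and 1.55 ± 0.07 for Hoxb9. In TAZKo the same members rose by 0.23 ± 0.06, 0.31 ± 0.08, 0.71 ± 0.08 and 1.10 ± 0.07. Their flanks went the other way: Hoxb5 fell by 0.49 in WT and 0.52 in TAZKo, and Hoxb13 fell by 0.43 and 0.69. The small rises of Hoxb6 and Hoxb7 depend on the scaling, since with library size alone Hoxb6 stood at 0.11 in WT (adjusted p = 0.1749) and 0.14 in TAZKo (adjusted p = 0.08659), and Hoxb7 at 0.18 in WT (adjusted p = 0.07504). Leaving out 1 library ended the WT call of Hoxb6 in 10 of 12 fits and that of Hoxb7 in 3, with adjusted p up to 0.1312 and 0.0773. In TAZKo it ended that of Hoxb6 without replicate 2 of either condition (adjusted p up to 0.06272) and that of Hoxb7 without TAZKo hypoxia replicate 3 (0.06285).

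All detected group 13 members fell in hypoxia in both lines. Hoxa13 dropped to 1.10, 0.538 and 0.983 CPM in WT hypoxia and to 1.31, 1.38 and 1.29 in TAZKo hypoxia, from the normoxia values given above. The log2 differences were -1.63 ± 0.26 (adjusted p = 1.405e-04) and -1.77 ± 0.22 (adjusted p = 2.61e-05). Hoxc13 fell by 0.79 ± 0.10 in WT (adjusted p = 2.547e-05) and by 0.49 ± 0.10 in TAZKo (adjusted p = 0.00175). Summed per kb, group 13 went from 36.7 ± 1.99 to 23.0 ± 2.79 in WT and from 34.4 ± 0.553 to 22.5 ± 1.92 in TAZKo. Group 9 went the other way, from 26.3 ± 1.44 to 50.8 ± 2.58 in WT and from 37.2 ± 1.06 to 64.5 ± 2.39 in TAZKo, with Hoxb9 supplying 80.3 ± 2.57% and 81.3 ± 1.07% of it in hypoxia.

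Hoxc5 fell in WT by 0.39 ± 0.14 (adjusted p = 0.02933), which was lost without WT normoxia replicate 1 or WT hypoxia replicate 3 (adjusted p up to 0.08105). With lane as a covariate the Hoxc5 call was lost as well (adjusted p = 0.05078). Hoxc9 fell in WT by 0.30 ± 0.09 (adjusted p = 0.009773). Hoxd8 fell in WT hypoxia by 0.57 ± 0.15 (adjusted p = 0.004877), and in TAZKo it was at the floor in both conditions, so no fold is given. Hoxc8 fell in WT by 0.98 ± 0.20 (adjusted p = 8.743e-04) and stood at -0.15 ± 0.18 in TAZKo (adjusted p = 0.5387). The difference between those responses, 0.84 ± 0.26, did not pass (adjusted p = 0.1299). Hoxc6 rose in TAZKo by 0.46 ± 0.09 (adjusted p = 9.824e-04) and stood at 0.21 ± 0.09 in WT (adjusted p = 0.0719). With lane as a covariate Hoxc6 passed in WT too, at 0.24 (adjusted p = 0.03701). The anterior Hoxa2, a hindbrain and face member, stood at 0.75 ± 0.34 in WT (adjusted p = 0.07966), and passed with the replicate block (adjusted p = 0.04621).

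**Figure D4:**
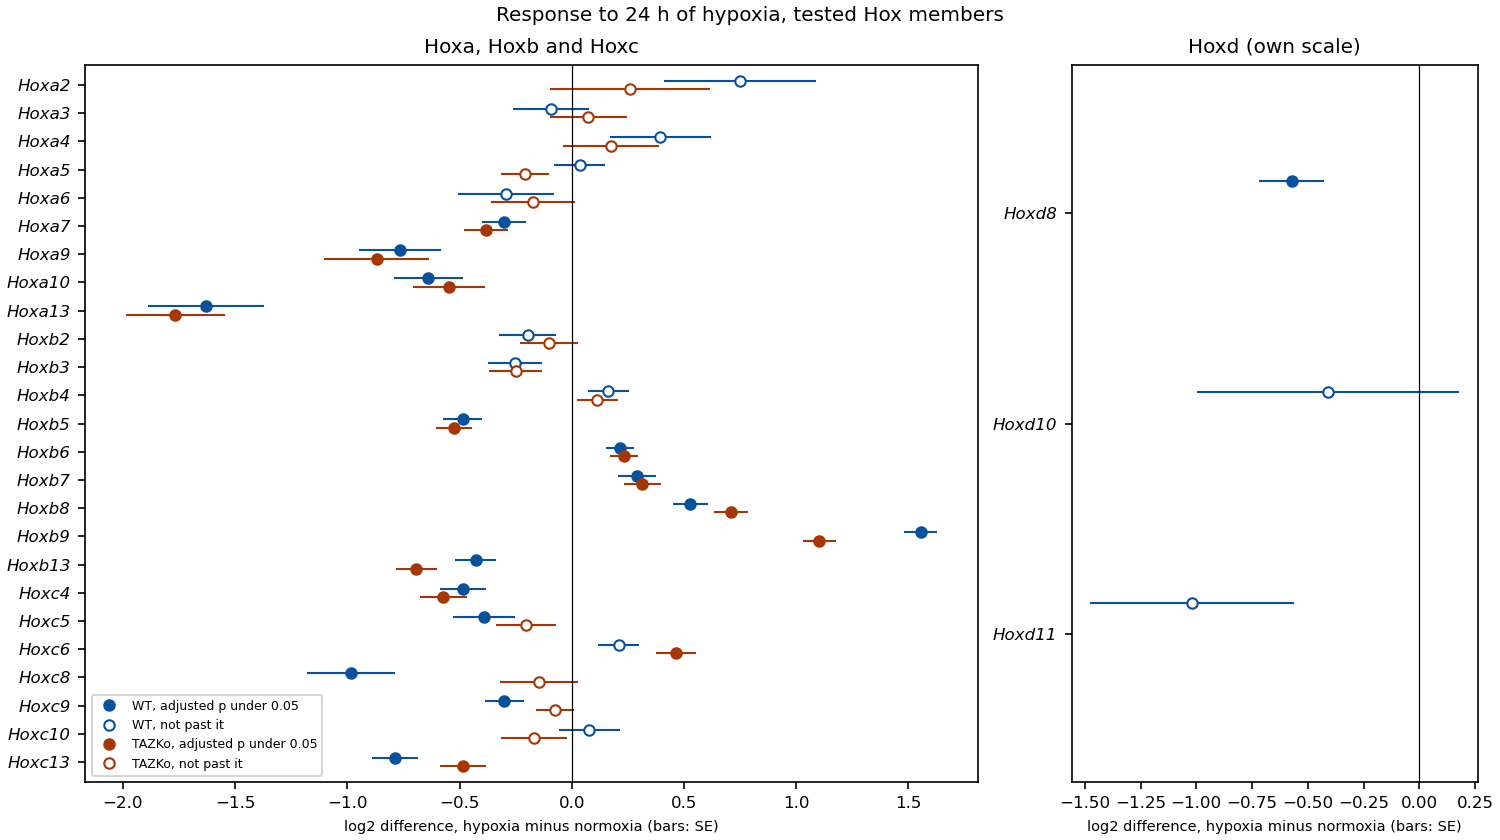
Fitted log2 difference between 24 h of hypoxia and normoxia for tested members in the WT and TAZKo libraries, with the SE as bars and filled points for adjusted p under 0.05; for Hoxd, with its own scale, only WT is drawn because no member was detected in either TAZKo group. Hoxb9 is the highest in both lines at 1.55 and 1.10, and Hoxa13 the lowest of Hoxa, Hoxb and Hoxc at -1.63 and -1.77.

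The response to hypoxia differed between the lines past the threshold for 1 of 29 members, or 3.45%, beside 2.43% of all genes. That member was Hoxb9, which rose less in TAZKo, from a higher start, by -0.45 ± 0.10 (adjusted p = 0.03603). The call was lost in 10 of the 12 fits that left out 1 library, all but those without WT normoxia replicate 1 or WT hypoxia replicate 1 (adjusted p up to 0.1362).

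Hox proteins bind DNA with cofactors of the TALE class, the Pbx, Meis and Pknox (Prep) proteins. All 9 listed cofactor genes were tested: 1 was higher and 3 lower in TAZKo normoxia, beside 15.6% and 14.9% of all genes. In hypoxia 1 was higher and 2 lower, beside 15.8% and 16.9%. Pknox2 was at 2.57, 3.51 and 3.08 CPM in WT normoxia and 8.37, 7.11 and 8.22 in TAZKo normoxia. In hypoxia it was at 2.55, 2.02 and 2.44 in WT and 7.14, 5.67 and 6.03 in TAZKo. The differences were 1.37 ± 0.14 and 1.42 ± 0.15 (adjusted p = 6.405e-06 and 9.334e-06). Meis3, a low gene at 0.303 to 0.983 CPM, was lower by -0.85 ± 0.30 in normoxia (adjusted p = 0.04359, and 0.05335 with the replicate block) and -1.03 ± 0.28 in hypoxia (adjusted p = 0.01279). Leaving out 1 library ended the Meis3 call in 4 of 12 fits in normoxia (WT replicate 1 or 3, TAZKo replicate 1 or 2) and 2 in hypoxia (replicate 3 of either line), with adjusted p up to 0.136.

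Retinoic acid is a classic upstream input to 3′ Hox genes, and of the 22 listed inputs and regulators of axial position 10 were tested. In TAZKo normoxia 3 were higher and 1 lower, or 40% in all, beside 30.4% of all genes. In TAZKo hypoxia 5 were higher and 2 lower, or 70%, beside 32.8%. Aldh1a1, which makes retinoic acid, was at 21.9, 24.0 and 24.4 CPM in WT normoxia and 4.80, 5.20 and 4.95 in TAZKo normoxia. In hypoxia it was at 9.60, 8.26 and 7.42 in WT and 2.33, 2.73 and 2.37 in TAZKo. The differences were -2.23 ± 0.10 (adjusted p = 4.177e-09) and -1.75 ± 0.12 (adjusted p = 1.798e-07). Cyp26b1, which degrades retinoic acid, lay the other way at 0.614 to 1.06 CPM in WT normoxia and 2.99 to 3.62 in TAZKo normoxia. Its differences were 1.98 ± 0.20 and 1.90 ± 0.17 in normoxia and hypoxia (adjusted p = 6.831e-06 and 2.695e-06).

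Polycomb proteins keep Hox genes silent and trithorax proteins keep them active. All 27 listed genes were tested: 4 were higher and 3 lower in TAZKo normoxia, or 25.9% in all, beside 30.4% of all genes. In TAZKo hypoxia 6 were higher and 6 lower, or 44.4%, beside 32.8%. None of those that passed differed by 2-fold or more. Their median difference was -0.06 in normoxia and -0.04 in hypoxia, beside 0.01 and -0.01 over all genes.

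Of 58 other transcription factors that mark position in embryonic mesenchyme 28 were tested. In TAZKo normoxia 9 were higher and 8 lower, or 60.7% in all, beside 30.4% of all genes, and in TAZKo hypoxia 10 were higher and 9 lower, or 67.9%, beside 32.8%. Tbx15, a T-box factor of dorsal skin and skeleton, was nearly silent in the libraries labelled TAZKo, as Hoxd8 was. It had 35, 42 and 48 counts in WT normoxia and 2 in each TAZKo normoxia library. In hypoxia it had 22, 42 and 36 counts in WT and 1, 1 and 5 in TAZKo, with adjusted p = 2.001e-06 and 6.681e-06. Tbx3, a T-box factor of limb and mammary gland, had 12, 18 and 17 counts in WT normoxia and 0, 0 and 1 in TAZKo normoxia. Under hypoxia its values were 3, 8 and 13 in WT and 0 in each TAZKo library, with adjusted p = 1.824e-04 and 9.187e-04.

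Emx2, a homeodomain factor of the urogenital ridge and shoulder blade, was at 8.94 to 11.4 CPM in WT normoxia and 4.38 to 4.98 in TAZKo normoxia. Its differences were -1.12 ± 0.11 and -1.10 ± 0.12 in normoxia and hypoxia. Higher in TAZKo were Foxf1, a factor of the mesoderm around the gut and lung, by 1.49 ± 0.08 and 1.54 ± 0.08, and Twist2, a factor of dermis, by 1.25 ± 0.11 and 0.97 ± 0.11. Lhx9, a factor of limb and gonad, was higher by 1.05 ± 0.26 and 1.16 ± 0.25, and its normoxia call was lost without TAZKo normoxia replicate 3 (adjusted p = 0.06017). In each case the TAZKo libraries did not overlap the WT libraries of the same condition.

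**Figure D5:**
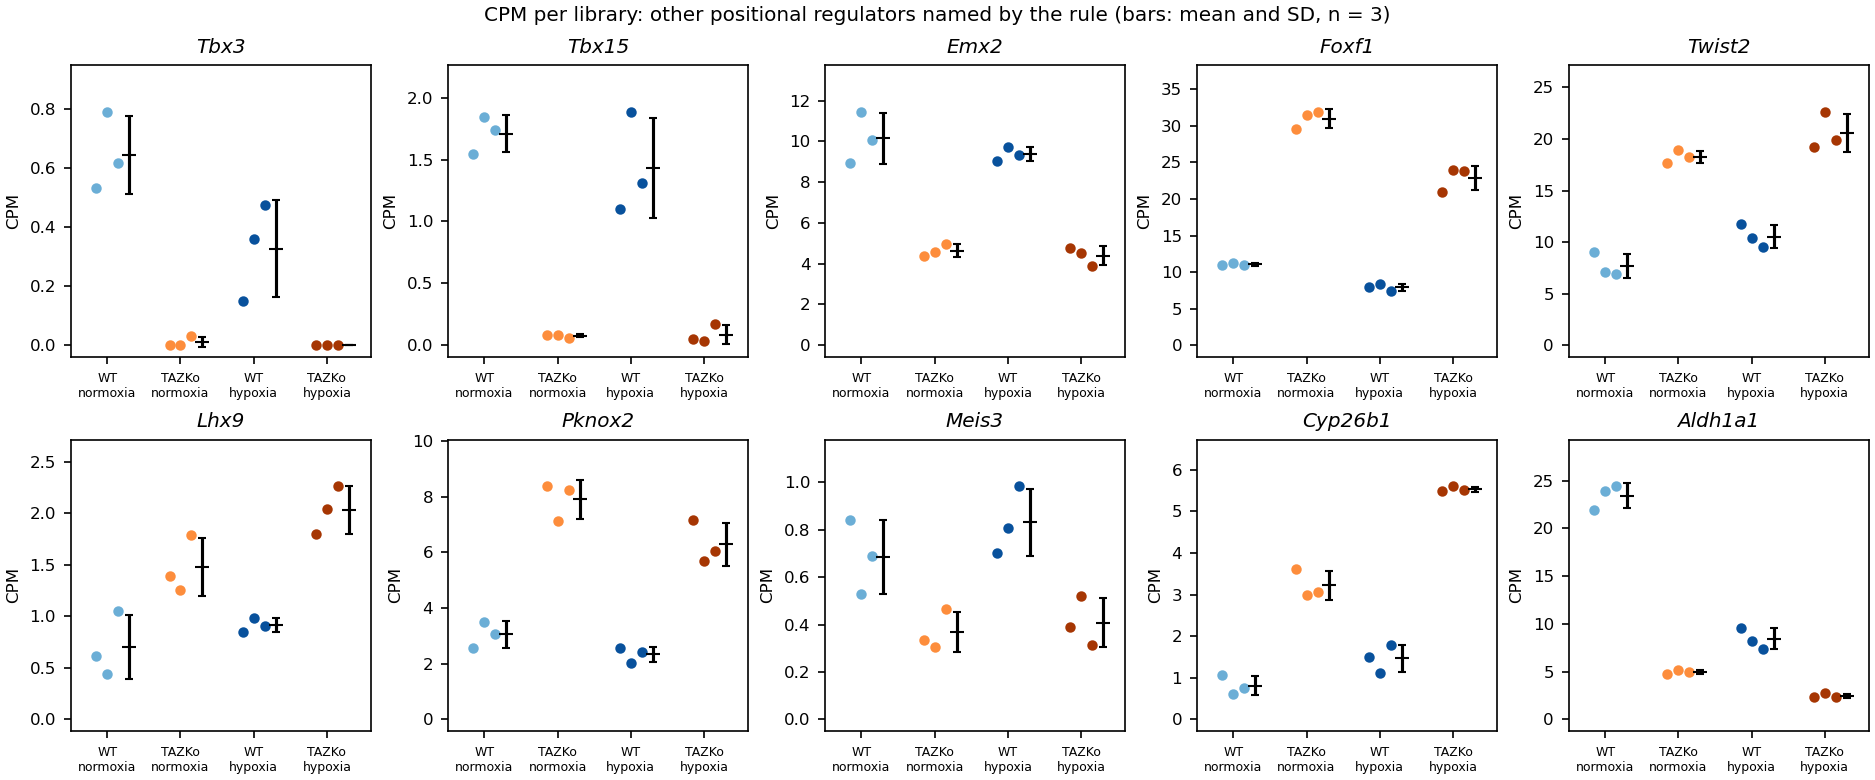
CPM in each of the 12 libraries (points, 3 per group) with the mean and SD, for the cofactors, retinoic acid enzymes and other positional factors that passed in both comparisons of the lines in 1 direction with at least 2-fold in either. Tbx3 and Tbx15 are near 0 in the libraries labelled TAZKo, and Foxf1 lies at 29.5 to 31.9 CPM in TAZKo normoxia against 10.9 to 11.2 in WT normoxia.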

How the data were processed

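The authors deposited whole-number counts per Ensembl gene for each library, prepared with a kit that does not mark strand, per the labels' protocols. The build was mm10, per the submitters' processing notes; the aligner and counter are not given in the sources used here. Symbols, coordinates and exon lengths were taken from GENCODE M21 (GRCm38). Counts were fitted with edgeR 4.0.16 in R 4.3.3 (TMM scaling, filterByExpr, 1 coefficient per group, quasi-likelihood test) on all 12 libraries, and p-values were adjusted by Benjamini-Hochberg over 14408 genes, with a threshold of 0.05. SE is the log2 difference over the square root of F. CPM is TMM-scaled, and levels of different genes are compared per kb of exon. Intervals of pooled counts are exact 95% intervals. The fit was checked on simulated counts. Values of all 12 libraries are given for members at 1 CPM or more that differed at least 2-fold between the lines and for the top member per kb of each cluster; genes of the other lists are named where both comparisons of the lines passed in 1 direction and either was at least 2-fold. One member of Hoxa is counted in the totals but is not reported here by itself. Members and lists were chosen with earlier results of these data known. Same-numbered libraries deviated together between the lines in normoxia (correlations 0.354, 0.149 and 0.228) and between conditions in WT (0.368, 0.204 and 0.152), so the fit with the replicate number as a block is given where it changes a call there. Alternatives were DESeq2 1.42.0 (size factors, Wald test), library size alone, other filters, lane, only the libraries compared and each library left out. Lanes of replicates 1 to 3 were 4, 4 and 5 in both normoxia groups and 4, 5 and 5 in both hypoxia groups.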

Additional observations from a re-analysis of the deposited data

Results flagged for a closer look

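Hoxb9 had a response to hypoxia that differed between the lines by the test of the difference itself. It rose by 1.55 on the log2 scale in WT and 1.10 in the libraries labelled TAZKo, a difference of -0.45 ± 0.10 (SE, adjusted p = 0.03603, edgeR), and every hypoxia library lay above every normoxia library of its line. The call was lost in 10 of 12 fits that left out 1 library.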

How the results depend on the processing

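The normoxia and hypoxia differences of Hoxd8, Hoxa9 and Hoxb9, and the hypoxia responses of Hoxb8, Hoxb9, Hoxa13, Hoxb13 and Hoxc13, kept their direction and passed the threshold in each of the 12 fits that left out 1 library. A filter at a mean of 5 CPM left 16 members, without Hoxd, and 5 passed between the lines in normoxia and 6 in hypoxia. Over all genes 3535 and 3780 of 10318 passed in that setting. Fewer members tested is part of it. With no filter 2 members passed the test of the difference between responses, beside 727 of 28702 genes. Leaving out 1 library gave 8 to 12 members between the lines in normoxia, 8 to 13 in hypoxia, 14 to 16 for hypoxia in WT, 12 to 14 in TAZKo and 0 to 3 for the difference. The counts over all genes moved as well, in the same order 3349 to 4961, 3765 to 6149, 6510 to 7679, 5367 to 7678 and 174 to 711. The Hoxc8 difference in normoxia, never past the threshold, ran from -0.12 without TAZKo normoxia replicate 1 and -0.10 without WT normoxia replicate 1 to 0.15 without WT normoxia replicate 2. With the replicate block 12 members passed between the lines in normoxia, 12 in hypoxia, 17 for hypoxia in WT, 13 in TAZKo and 1 for the difference. Over all 14408 genes 5212, 5518, 8032, 7010 and 639 passed with the block, beside 4384, 4723, 7355, 6309 and 350 without it. Apart from the values in the report the block changed no call of a Hox member. In the pairs of groups that were not paired, the mean correlation of same-numbered libraries was 0.0508 between the lines in hypoxia and 0.0326 between conditions in TAZKo. Counting a member as detected at a mean of 1 CPM left 1 Hoxd member, of group 8, in both WT groups, and group 10 as the most 5′ of Hoxa in WT hypoxia. Without 1 library Hoxc in either WT group had 8 to 9 detected members, Hoxd in WT hypoxia 2 to 3, with group 10 to 11 as its most 5′. With library size alone the summed CPM moved by more than 1 SD for Hoxb in TAZKo normoxia (183.0), WT hypoxia (203.5) and TAZKo hypoxia (241.9) and for Hoxc in WT normoxia (147.3) and TAZKo normoxia (131.6), and the median of all genes in the WT hypoxia response moved from 0.01 to -0.10 on the log2 scale, that of TAZKo from -0.01 to -0.10. Depth limits the Hoxd members other than Hoxd8, whose counts per library were few.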
